A study of Mus musculus with 16 samples.

Results

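The 10 genes examined here encode the D-type cyclins (Ccnd1, Ccnd2 and Ccnd3), their kinases (Cdk4 and Cdk6), the Cip/Kip inhibitors (Cdkn1a, Cdkn1b and Cdkn1c) and the INK4 inhibitors Cdkn2c and Cdkn2d, out of 45513 genes in the count tables. They were chosen by name, and all 10 were expressed above the filter on low counts, which kept 15323 genes. RNA had been sequenced from sorted small intestinal epithelium of 8 mice, with 1 library of tdTom+ and 1 of tdTom- cells from each mouse (16 libraries). The animals of both groups were C57BL/6 males and females between 8 and 16 weeks of age. The paper's methods give them as homozygous for the Atoh1(WT)CreERT2 allele and heterozygous for the Rosa26 tdTom reporter (R26RtdTom). In this line a tamoxifen-inducible recombinase is made from the Atoh1 locus, Atoh1 being the transcription factor gene of the secretory lineage, and recombination leaves the cell and its progeny red. Every mouse had received tamoxifen, so that no uninduced group was present. The schedule was 1 mg on each of 3 days, which the labels and the study's methods for its secretory signature give alike. The proximal small intestine was fractionated to enrich for crypts, and live EpCAM+ cells were sorted by tdTom. The tdTom+ fraction is therefore a mixture of secretory cell types and their progeny, and the tdTom- fraction a mixture of the remaining epithelium. In such bulk samples, fewer cells of a type and less RNA per cell cannot be told apart.

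D-type cyclins are the sensors of the cell cycle: growth signals raise them, they bind CDK4 or CDK6, and the complex phosphorylates the retinoblastoma protein so that E2F factors can start the genes of DNA replication. INK4 proteins bind CDK4 and CDK6 and keep the cyclin out, while the Cip/Kip proteins p21, p27 and p57 inhibit CDK2 complexes and at the same time help to assemble cyclin D with CDK4 or CDK6. In the intestine, crypt progenitors divide rapidly and stop as they become goblet, Paneth, enteroendocrine or absorptive cells.

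The labels held in the RNA. Atoh1 had a mean level of 62.5 CPM (SD 12.7) in the 8 tdTom+ libraries and of 0.718 CPM (SD 0.247) in the 8 tdTom- libraries. CPM is the count scaled to library size, here by the TMM method, the trimmed mean of log ratios. All 6 goblet, 6 Paneth, 6 enteroendocrine and 5 tuft markers were higher in tdTom+ cells, and all 6 absorptive markers were lower. The sizes were unlike, with median log2 fold changes of 7.33 for goblet and 7.40 for Paneth markers. They were 1.85 for enteroendocrine and 1.63 for tuft markers, and the fractions overlapped for the tuft markers Trpm5 and Sh2d6. Soon after a single tamoxifen pulse, the paper's staining found no tdTom in tuft cells or mature enteroendocrine cells, and enteroendocrine cells carried it days later. Total counts lay between 17116405 and 25323567 per library. The tdTom- library of mouse 7 stood apart. Its 5 stem cell markers summed to 2669 CPM, against 1032 to 1645 in the other 7 tdTom- libraries, its 8 markers of replication and mitosis to 835 CPM against 396 to 592, and its 6 absorptive markers to 9925 CPM against 18303 to 28184. Its 5 tuft markers summed to 16.2 CPM against 29.9 to 98.7. Its 8 immune markers summed to 130 CPM, high within the 9.97 to 141 CPM of the other 7. Calls that changed when this mouse was left out are given both ways.

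Of the 10 genes, 6 were higher in tdTom+ than in tdTom- cells of the same mouse, 0 were lower and 4 did not pass the test (edgeR quasi-likelihood test with the mouse as a block, Benjamini-Hochberg adjusted p under 0.01 over all genes tested). Among all genes tested, 55.8% passed, 25.8% as higher and 30.0% as lower in tdTom+ cells. Those that rose were Ccnd2, Ccnd3, Cdkn1a, Cdkn1b, Cdkn1c and Cdkn2d, and those that did not pass were Ccnd1, Cdk4, Cdk6 and Cdkn2c. No gene was lower at an unadjusted p under 0.05 either, and DESeq2 and limma-voom also called 0 lower. The median log2 fold change was 0.39 over the 10 genes and 0.02 over all genes tested. For 4 of the 10, all tdTom+ values lay above all tdTom- values, which held for 14.6% of the genes tested, and 6 of the 10 were higher in tdTom+ cells in 8 of 8 mice, which held for 22.9%. Without mouse 7, 8 of the 10 were higher, with Ccnd1 and Cdk6 added, beside 58.5% of all genes passing (28.2% higher and 30.3% lower). DESeq2 with the block called 7 of the 10 higher, with Ccnd1 added, beside 43.2% of its 21372 genes (20.6% higher and 22.6% lower). The edgeR fit without the block called 6, beside 49.6% (22.7% higher and 27.0% lower).

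**Figure D1:**
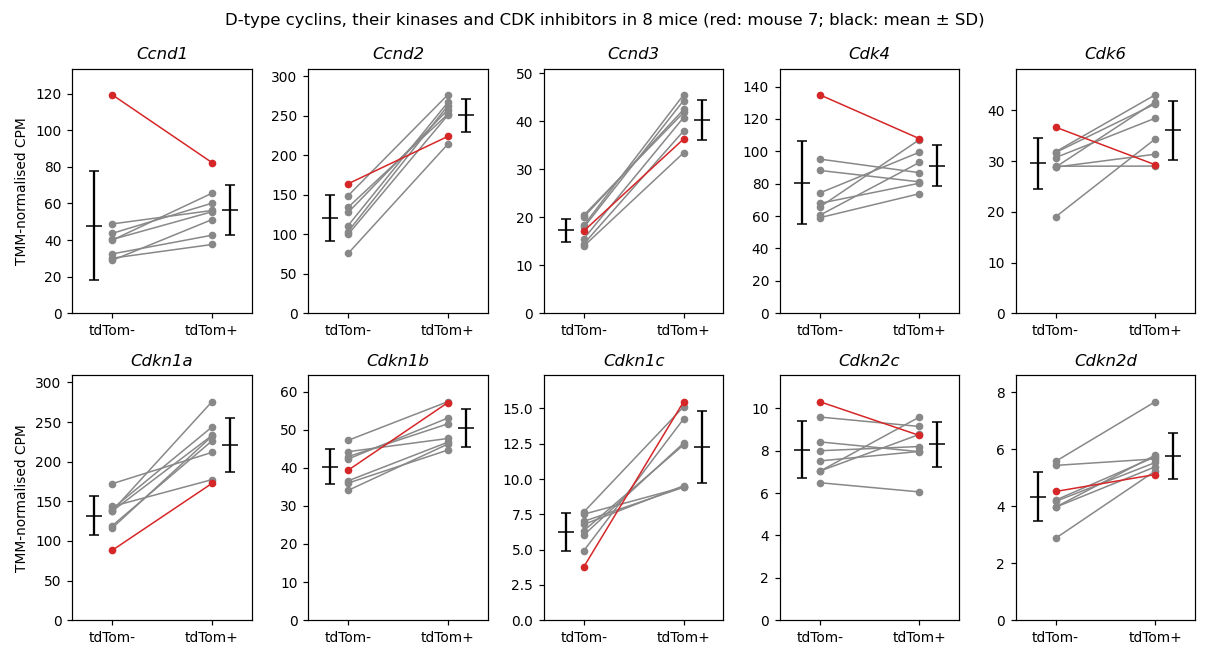
Level of each of the 10 genes (TMM-normalised CPM, vertical axis from 0) in the tdTom- and tdTom+ library of each mouse, with a line joining the libraries of 1 mouse, mouse 7 in red, and the mean ± SD of 8 libraries in black. Ccnd2, Ccnd3, Cdkn1a and Cdkn1c separate the fractions completely, whereas for Ccnd1 and Cdk4 the tdTom- library of mouse 7 lies above the other libraries.

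Ccnd3 had the largest change of the 10 genes. It encodes cyclin D3, the D-type cyclin best known from lymphocytes and differentiating tissues, and lies on chromosome 17 at chr17:47505051-47599691 (plus strand, GRCm38). Its level ran from 33.4 to 45.5 CPM with a median of 41.3 in tdTom+ cells and from 14.0 to 20.4 CPM with a median of 17.5 in tdTom- cells. The fractions did not overlap, and every tdTom+ library exceeded the highest tdTom- library. edgeR gave a log2 fold change of 1.23 ± 0.06 (SE), or 2.34-fold (edgeR adjusted p = 5.4e-10). Of its 8775 exonic bases, 361 are shared with Bysl on the opposite strand, where the counting was strand-specific. The processed pseudogene Ccnd3-ps took between 3 and 23 counts per library beside the 289 to 1006 of Ccnd3.

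Ccnd2, the gene of cyclin D2 (chr6:127125779-127151048, minus strand), rose nearly as much and was the most abundant of the D-type cyclins. It ran from 214 to 276 CPM with a median of 255 in tdTom+ cells and from 75.6 to 164 CPM with a median of 119 in tdTom- cells. No tdTom- library reached the lowest tdTom+ library, although the tdTom- library of mouse 7 was the highest of its fraction. The log2 fold change was 1.09 ± 0.10, or 2.13-fold (edgeR adjusted p = 4.2e-07), and 1.18 ± 0.08 without mouse 7.

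Ccnd1, the gene of cyclin D1 and a target of Wnt and growth factor signals (chr7:144929931-144939869, minus strand), behaved differently. It ran from 37.6 to 82.4 CPM with a median of 55.8 in tdTom+ cells and from 28.9 to 119 CPM with a median of 40.1 in tdTom- cells. The fractions overlapped. In 7 of 8 mice the tdTom+ library was the higher, by a modest margin, while in mouse 7 the tdTom- library reached 119.4 CPM, above every other library of either fraction. The next tdTom- library was at 48.8 CPM. The log2 fold change over 8 mice was 0.35 ± 0.12 and missed the threshold (edgeR adjusted p = 0.0182). Without mouse 7 it was 0.49 ± 0.07 and passed (edgeR adjusted p = 4.7e-05), as it did without mouse 3 (0.46 ± 0.13, edgeR adjusted p = 0.00845), where the median of all genes rose to 0.12, so that the change of Ccnd1 beyond that median was 0.34, against 0.33 over 8 mice. Over all 8 mice it also passed in DESeq2 with the block (adjusted p = 0.00494), in edgeR without a filter on low counts (edgeR adjusted p = 0.00664) and with at least 10 counts in every sample (edgeR adjusted p = 0.00315). Without the block it did not pass in edgeR (edgeR adjusted p = 0.454) or in DESeq2 (DESeq2 adjusted p = 0.438), so that the DESeq2 call was lost. The call for Ccnd1 therefore depended on the mice, the tool, the filter and the block.

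The change of Ccnd1 differed from that of both other D-type cyclins. Within mice, its log2 change was smaller than that of Ccnd2 by 0.73 ± 0.27 (SD over 8 mice) and smaller than that of Ccnd3 by 0.87 ± 0.35, in 8 of 8 mice each time. For both, the exact two-sided sign-flip test gave p = 0.00781, the smallest that 8 mice allow, and an adjusted p of 0.0156 over the 8 pairs of related genes compared. Ccnd2 and Ccnd3 were not separated: the difference was -0.14 ± 0.30, with Ccnd2 the larger in 3 of 8 mice (exact p = 0.242, adjusted p = 0.313).

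Scaled for length (RPKM, the TMM-normalised CPM divided by the kilobases of exon), Ccnd2 was the highest D-type cyclin in both fractions, with a level of 43.9 ± 3.74 RPKM in tdTom+ and 21.1 ± 5.02 RPKM in tdTom- cells (SD, n = 8). Ccnd1 followed at 14.7 ± 3.61 and 12.5 ± 7.74 RPKM and Ccnd3 at 4.59 ± 0.47 and 1.96 ± 0.27 RPKM. The length is the union of all annotated exons, which makes genes with many isoforms, such as Ccnd3, appear lower. Summed, the D-type cyclins came to 63.2 ± 3.01 RPKM in tdTom+ cells, with a range of 59.0 to 67.9, and to 35.6 ± 11.5 RPKM in tdTom- cells, with a range of 25.3 to 61.8. The sum was higher in the tdTom+ library of all 8 mice. The tdTom- library of mouse 7, at 61.8 RPKM, was the only tdTom- library inside the tdTom+ range.

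The composition of the D-type cyclin pool also differed between the fractions. Ccnd1 made up 23.2 ± 5.55% of the summed RPKM in tdTom+ and 33.6 ± 9.0% in tdTom- cells, and its share was lower in the tdTom+ library of 8 of 8 mice. The share of Ccnd2 was 69.5 ± 5.16% against 60.5 ± 8.62%, and that of Ccnd3 7.27 ± 0.75% against 5.84 ± 1.37%, both higher in tdTom+ cells of 8 of 8 mice. In the tdTom- library of mouse 7, Ccnd1 took 50.4% of the sum, and in the other 7 tdTom- libraries 23.9 to 41.1%. These shares are given as a description, with no test.

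**Figure D2:**
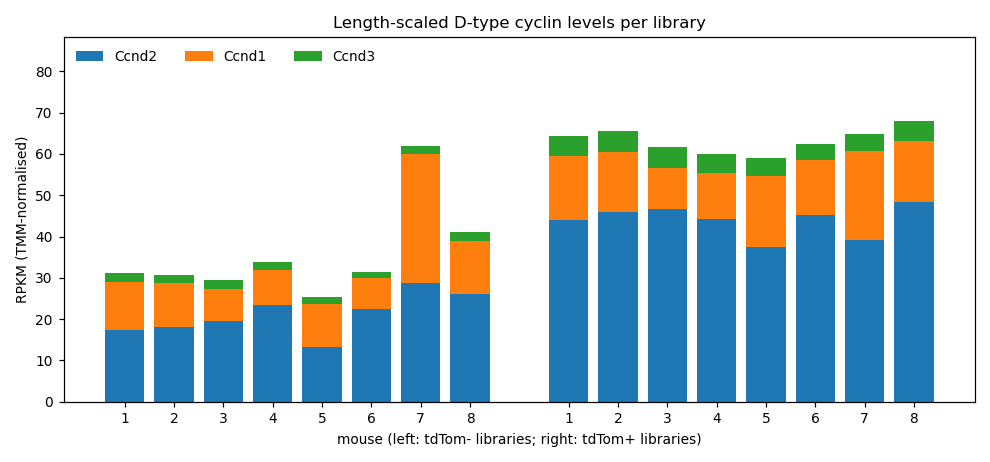
Length-scaled levels (RPKM, TMM-normalised, vertical axis from 0) of Ccnd2, Ccnd1 and Ccnd3 stacked for each library, with the 8 tdTom- libraries on the left and the 8 tdTom+ libraries on the right, numbered by mouse. The tdTom+ stacks reach 59.0 to 67.9 RPKM, and among the tdTom- stacks that of mouse 7 alone reaches this range, through a larger Ccnd1 block.

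Lymphocytes also express Ccnd2, Ccnd3 and Cdk6. Of the 8 immune markers, 7 were tested and 6 of them were lower in tdTom+ cells. The 8 summed to 5.79 to 27.3 CPM in tdTom+ and to 9.97 to 141 CPM in tdTom- libraries, so that the ranges overlapped. Of the 5 stem cell markers, 3 were higher in tdTom+ cells, with sums of 1484 to 2649 CPM against 1032 to 2669 CPM. Of the 6 stromal markers, 3 were tested and Vim alone was higher, while Dcn had 0 counts in every tdTom+ library and at most 4 in a tdTom- library. The part of these cell types in the cyclin values was not tested.

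Neither partner kinase passed the main test over all 8 mice. Cdk4 (chr10:127063534-127067920, plus strand) ran from 73.8 to 108 CPM with a median of 90.0 in tdTom+ cells and from 59.0 to 135 CPM with a median of 71.0 in tdTom- cells. The fractions overlapped, the tdTom+ library was higher in 5 of 8 mice, and the highest value was again the tdTom- library of mouse 7. edgeR gave a log2 fold change of 0.22 ± 0.11 and did not pass (edgeR adjusted p = 0.0944), nor did it without mouse 7 (0.30 ± 0.10, edgeR adjusted p = 0.0156).

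Cdk6 (chr5:3341485-3531008, plus strand) ran from 29.0 to 43.1 CPM with a median of 36.4 in tdTom+ cells and from 19.0 to 36.7 CPM with a median of 29.8 in tdTom- cells. The fractions overlapped, with the tdTom+ library higher in 7 of 8 mice, and the tdTom- library of mouse 5 was the lowest of all. The log2 fold change was 0.29 ± 0.10 (edgeR adjusted p = 0.0250). Without mouse 7 it was 0.38 ± 0.09 and without mouse 3 it was 0.42 ± 0.11, and both passed (edgeR adjusted p = 0.00145 and 0.00664). Over all 8 mice it passed with at least 10 counts in every sample (0.41 ± 0.10, edgeR adjusted p = 0.00353). Without mouse 3 and with that filter the median of all genes rose to 0.12. The change of Cdk6 beyond the median was then 0.30 and 0.29, against 0.27 in the main test. The changes of the kinases were not separated, with a difference Cdk4 minus Cdk6 of -0.07 ± 0.22 (exact p = 0.406, adjusted p = 0.406). By length Cdk4 was the more abundant, at 28.1 ± 3.94 and 24.8 ± 7.82 RPKM in tdTom+ and tdTom- cells, against 2.58 ± 0.41 and 2.11 ± 0.36 RPKM for Cdk6, whose annotated exons span 13989 bases.

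The promoters of the kinases shared a sequence feature. In the 250 bases before the transcription start given by RefSeq (GRCm38.p6), Cdk4 holds the E-box CACGTG at 4 places, with first bases at -172, -118, -98 and -11 from the start, and Cdk6 holds it at -220. CACGTG is the element that MYC and its relatives bind, and Myc was among the upstream factors examined. It reads the same on both strands, and 6.02% of 32851 mouse promoters of this length hold it. RefSeq promoters were matched for 7 of the 10 genes (10 promoters, none for Ccnd1, Ccnd2 and Cdkn1c). Only the Cdk4 and Cdk6 promoters among these hold CACGTG. None of the 10 holds the E-box CAGCTG, found in 13.0% of promoters, or an E2F element (TTTCCCGC, TTTCGCGC, TTTGCCGC or TTTGGCGC on either strand), found in 1.86%. A match describes letters and not binding. The promoters at chr10:127063285-127063534 (plus strand) and chr5:3343643-3343892 (plus strand) are shown with the E-box in capitals, because these alone among the promoters matched hold it.
Cdk4: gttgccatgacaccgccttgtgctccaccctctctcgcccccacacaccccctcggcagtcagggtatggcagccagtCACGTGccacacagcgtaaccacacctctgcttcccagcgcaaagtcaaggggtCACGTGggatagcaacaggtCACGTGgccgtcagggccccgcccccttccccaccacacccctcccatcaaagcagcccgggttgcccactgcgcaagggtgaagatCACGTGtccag
Cdk6: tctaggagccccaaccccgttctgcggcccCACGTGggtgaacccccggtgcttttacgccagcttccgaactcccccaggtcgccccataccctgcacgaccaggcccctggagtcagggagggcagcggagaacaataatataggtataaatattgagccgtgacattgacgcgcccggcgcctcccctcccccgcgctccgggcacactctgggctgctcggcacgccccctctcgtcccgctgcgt

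All 3 Cip/Kip inhibitors rose in tdTom+ cells. Cdkn1a encodes p21, the best known target of p53 (chr17:29090979-29100722, plus strand). It ran from 173 to 276 CPM with a median of 229 in tdTom+ cells and from 88.2 to 172 CPM with a median of 138 in tdTom- cells. The fractions did not overlap, but the margin was narrow, at 172.6 CPM in the lowest tdTom+ library (mouse 7) and 172.2 CPM in the highest tdTom- library (mouse 5). Within every mouse the tdTom+ library was the higher. edgeR gave a log2 fold change of 0.76 ± 0.09, or 1.69-fold (edgeR adjusted p = 5.0e-06), and 0.73 ± 0.09 without mouse 7. In mouse 7 both fractions had the lowest Cdkn1a level of their group.

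The first Cdkn1a promoter of RefSeq, at chr17:29090729-29090978 (plus strand), holds a p53 site of 20 bases with its first base at -51. The search was for the full site and allowed at most 1 mismatch, here as in all promoters. Such a site was found in 25 of the 32851 promoters (0.0761%). This motif was added after the promoter had been read, and the second Cdkn1a promoter lacks it. The sequence is shown, with the p53 site in capitals, because other p53 target genes are compared with Cdkn1a in the data.
Cdkn1a: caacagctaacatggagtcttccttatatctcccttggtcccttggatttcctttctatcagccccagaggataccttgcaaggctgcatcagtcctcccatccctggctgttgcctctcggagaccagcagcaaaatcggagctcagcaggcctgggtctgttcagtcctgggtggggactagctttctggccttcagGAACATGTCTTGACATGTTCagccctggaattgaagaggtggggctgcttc

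Cdkn1b encodes p27, which holds cells in quiescence (chr6:134920401-134925513, plus strand). It ran from 44.7 to 57.4 CPM with a median of 49.6 in tdTom+ cells and from 34.1 to 47.2 CPM with a median of 40.8 in tdTom- cells. The ranges overlapped slightly, yet the tdTom+ library was the higher in 8 of 8 mice. The log2 fold change was 0.33 ± 0.05, or 1.25-fold (edgeR adjusted p = 0.000108), the smallest rise among the genes that passed.

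Cdkn1c encodes p57, an imprinted inhibitor of stem and progenitor cell division (chr7:143458350-143461050, minus strand). It ran from 9.42 to 15.5 CPM with a median of 12.5 in tdTom+ cells and from 3.79 to 7.67 CPM with a median of 6.56 in tdTom- cells. The fractions did not overlap. The tdTom- library of mouse 7 was the lowest and its tdTom+ library the highest. edgeR gave a log2 fold change of 0.97 ± 0.16, or 1.96-fold (edgeR adjusted p = 0.000140), and 0.83 ± 0.13 without mouse 7. Its counts, 83 to 357 per library, were the lowest of the Cip/Kip genes.

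Within mice, Cdkn1b changed less than its relatives. The log2 change of Cdkn1a exceeded that of Cdkn1b by 0.43 ± 0.24 in 8 of 8 mice, and that of Cdkn1b was below that of Cdkn1c, with a difference of -0.64 ± 0.52, in 8 of 8 mice (exact p = 0.00781 and adjusted p = 0.0156 for each). Cdkn1a and Cdkn1c were not separated, with a difference of -0.21 ± 0.50 (exact p = 0.273, adjusted p = 0.313).

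Scaled for length, Cdkn1a was the most abundant of the 10 genes, with a level of 99.7 ± 15.3 RPKM in tdTom+ and 59.3 ± 11.04 RPKM in tdTom- cells, above 97.2% and 93.9% of the genes tested. Cdkn1b stood at 11.1 ± 1.09 and 8.86 ± 1.00 RPKM and Cdkn1c at 6.36 ± 1.33 and 3.24 ± 0.69 RPKM. The summed Cip/Kip level was 117 ± 14.99 RPKM in tdTom+ and 71.4 ± 11.9 RPKM in tdTom- cells and was higher in the tdTom+ library of 8 of 8 mice. Most of it was Cdkn1a, whose ratio to Cdkn1b was 9.07 ± 1.73 in tdTom+ and 6.75 ± 1.36 in tdTom- cells.

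The INK4 inhibitors were divided. Cdkn2c encodes p18 (chr4:109660876-109667189, minus strand). It ran from 6.05 to 9.59 CPM with a median of 8.46 in tdTom+ cells and from 6.49 to 10.3 CPM with a median of 7.75 in tdTom- cells. The ranges lay almost on top of each other, and the tdTom+ library was the higher in 4 of 8 mice. The log2 fold change was 0.05 ± 0.09 (edgeR adjusted p = 0.631), and -0.01 without mouse 6.

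Cdkn2d encodes p19 (chr9:21288463-21291209, minus strand). It ran from 5.11 to 7.67 CPM with a median of 5.60 in tdTom+ cells and from 2.87 to 5.57 CPM with a median of 4.19 in tdTom- cells. The ranges overlapped, with the tdTom+ library higher in 8 of 8 mice and that of mouse 5 above the rest. edgeR gave a log2 fold change of 0.42 ± 0.10, or 1.34-fold (edgeR adjusted p = 0.00193). With scaling by total counts it was 0.36 ± 0.11 and did not pass (edgeR adjusted p = 0.0101), where the median of all genes was itself lower, at -0.05 against 0.02. The change of Cdkn2c was smaller than that of Cdkn2d by 0.37 ± 0.32 within mice, in 7 of 8 mice (exact p = 0.0234, adjusted p = 0.0375). This difference did not pass without the pairing (adjusted p = 0.0895), nor when any of mice 1, 2, 3, 4, 5, 7 or 8 was left out (adjusted p from 0.05 to 0.075). Leaving out a mouse also raises the smallest p that the sign-flip test can give, and the difference then stayed between -0.427 and -0.291.

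By length, Cdkn2c stood at 3.09 ± 0.40 and 3.00 ± 0.50 RPKM and Cdkn2d at 4.53 ± 0.63 and 3.41 ± 0.68 RPKM in tdTom+ and tdTom- cells. The remaining INK4 genes are Cdkn2a and Cdkn2b. Cdkn2a, which encodes p16 and ARF, had between 0 and 2 counts in any library and was below the filter. Cdkn2b, which encodes p15, was far more abundant than the INK4 genes above, at 52.0 ± 9.80 RPKM in tdTom+ and 41.8 ± 5.43 RPKM in tdTom- cells. Its log2 fold change of 0.30 ± 0.09 missed the threshold (edgeR adjusted p = 0.0108; higher in 6 of 8 mice), and it was called higher by DESeq2 with the block and by edgeR without mouse 7 (0.36 ± 0.09, edgeR adjusted p = 0.00186).

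**Figure D3:**
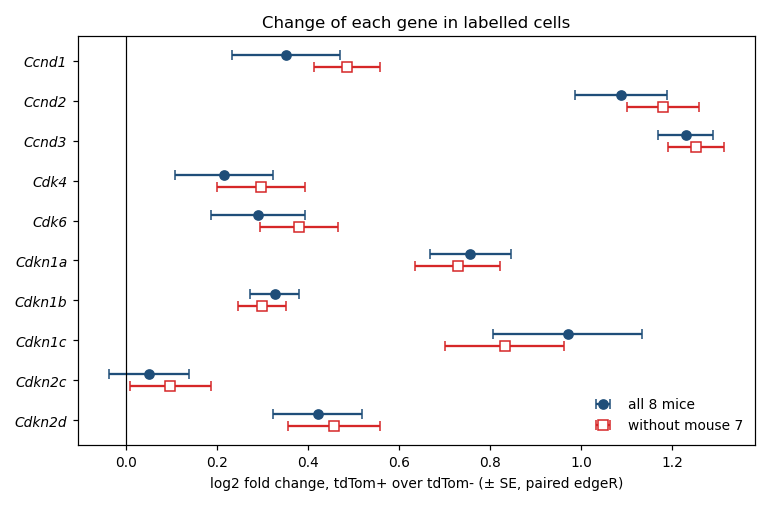
Log2 fold change of each gene in tdTom+ over tdTom- cells (horizontal axis, ± SE, paired edgeR fit) for all 8 mice (filled circles) and without mouse 7 (open squares). Ccnd3, Ccnd2 and Cdkn1c have the largest values, 1.23, 1.09 and 0.97, and Cdkn2c lies near 0. Ccnd1 moves from 0.35 to 0.49 when mouse 7 is left out.

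The genes most like Ccnd3 over the 16 libraries were Selenos, a selenoprotein of endoplasmic reticulum-associated degradation, Egfr, the receptor of epidermal growth factor, and Tmem248. Likeness was the root mean square distance between centred log2 CPM profiles, which was 0.10, 0.13 and 0.14, against a median of 0.70 over 14367 genes. Their log2 fold changes were 1.302, 1.24 and 1.26. Ccnd2 ranked 273 by the same measure, at a distance of 0.27, and Cdkn1a 780, at 0.36. Since the profiles cover both fractions, a gene with a fold change like that of Ccnd3 has a small distance.

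Downstream of the D-type cyclins, the 13 genes of the Rb family and the E2F and DP factors were divided, with 2 higher, 4 lower and 7 not passing (median log2 fold change -0.05). Beside this and the list counts below, 25.8% of all genes tested were higher and 30.0% lower, and the lists had no test as sets. E2f3, an activator of replication genes, fell from 21.2 ± 3.97 CPM in tdTom- to 10.5 ± 0.69 CPM in tdTom+ cells (log2 fold change -0.996 ± 0.08, edgeR adjusted p = 9.0e-08), in 8 of 8 mice and with no overlap. Tfdp2, a dimer partner of E2F, fell by 0.54 on the log2 scale (edgeR adjusted p = 6.8e-07). E2f2 and Tfdp1 rose by 0.36 and 0.29 in log2 fold change (edgeR adjusted p = 0.00206 and 0.00492), in 7 of 8 mice each. Their tdTom- libraries of mouse 7 lay above the highest tdTom+ library, and without that mouse their log2 fold changes were 0.45 ± 0.06 and 0.36 ± 0.06. E2f1 was then also called higher (0.41 ± 0.09, edgeR adjusted p = 0.00168), which made 3 of the 13. The list's count of 6 genes called in either direction was 4 without the mouse block, and 5 to 7 over the mice left out.

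Of 10 later cyclins, CDKs and CDC25 phosphatases, 2 rose, 1 fell and 7 did not pass (median log2 fold change 0.07). Cdc25b, whose phosphatase activates CDKs at the entry into mitosis, rose from 13.9 ± 1.90 to 59.1 ± 9.75 CPM (log2 fold change 2.08 ± 0.12, edgeR adjusted p = 3.2e-09), with no overlap. Cdk2, the kinase that Cip/Kip proteins inhibit, rose by 0.53 ± 0.10 (edgeR adjusted p = 0.000276). Cdc25a fell by 0.34 on the log2 scale (edgeR adjusted p = 1.8e-05). The E, A and B cyclins examined (Ccne1, Ccne2, Ccna2, Ccnb1 and Ccnb2) and Cdk1 did not pass.

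Among the 8 markers of replication and mitosis, 0 were called in either direction by edgeR, and DESeq2 and limma-voom with the block also called 0 (median log2 fold change 0.11). At an unadjusted p under 0.05, Mcm2 was higher and Pcna lower in tdTom+ cells. The summed level ran from 472 to 661 CPM in tdTom+ libraries and from 396 to 835 CPM in tdTom- libraries, the highest being that of mouse 7. Without mouse 7, 1 of the 8, Mcm2, was called higher (0.35 ± 0.09, edgeR adjusted p = 0.00437).

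Of 11 genes for activation and turnover of CDKs and cyclins, 3 rose, 0 fell and 8 did not pass (median log2 fold change 0.07). Fbxo31, an F-box protein reported to target cyclin D1 for degradation, rose from 7.85 ± 1.60 to 16.2 ± 0.64 CPM (log2 fold change 1.06 ± 0.10, edgeR adjusted p = 4.6e-07), with no overlap. Cks1b, a CDK-binding protein that also serves the degradation of p27, rose by 0.53 ± 0.14 (edgeR adjusted p = 0.00487), and by 0.64 ± 0.13 without mouse 7. The count of 3 was 1 without the mouse block, and 1 when mouse 1, 2 or 5 was left out.

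Among 9 transcription factors known to act on these genes, 3 rose, 4 fell and 2 did not pass (median log2 fold change -0.07). Klf4, which restrains division in the gut epithelium and activates Cdkn1a, rose from 139 ± 41.6 to 356 ± 53.9 CPM (log2 fold change 1.404 ± 0.14, edgeR adjusted p = 1.3e-06). Klf5, its growth-promoting relative, fell by 0.58 on the log2 scale (edgeR adjusted p = 1.1e-07), and Zbtb17, which encodes the MYC partner MIZ1, fell by 0.47 on that scale (edgeR adjusted p = 1.2e-05). Each of the Klf4, Klf5 and Zbtb17 changes separated the fractions without overlap. Myc rose by 0.44 ± 0.13 (edgeR adjusted p = 0.00752), in 6 of 8 mice and with overlap. Trp53, which encodes p53, did not pass (log2 fold change -0.07 ± 0.09, edgeR adjusted p = 0.544). The list's count of 7 genes called in either direction was 6 without the mouse block, with limma-voom and with scaling by total counts. It was 6 to 7 over the mice left out.

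Of 12 p53 target genes other than Cdkn1a, 7 rose, 1 fell and 4 did not pass (median log2 fold change 0.57), beside 25.8% of all genes tested higher and 30.0% lower. Like the other lists, this one was chosen with earlier results of these data known, so its count is no test of p53 targets as a set. Eda2r, a receptor of the TNF receptor family, rose from 0.669 ± 0.251 to 4.13 ± 1.62 CPM (log2 fold change 2.56 ± 0.27, edgeR adjusted p = 1.5e-06). Its counts were low, at 5 to 24 per tdTom- library and 33 to 136 per tdTom+ library. Trp53inp1, a stress protein that promotes cell cycle arrest, rose from 12.5 ± 4.07 to 52.5 ± 17.3 CPM (log2 fold change 2.06 ± 0.11, edgeR adjusted p = 1.5e-09). Sesn1, a stress-responsive regulator of growth signalling, went the other way, from 99.1 ± 23.8 to 26.6 ± 5.98 CPM (log2 fold change -1.89 ± 0.07, edgeR adjusted p = 4.4e-11). All 3 separated the fractions. The list's count of 8 genes called in either direction was 7 without the mouse block and 6 with at least 10 counts in every sample. It was 9 with scaling by total counts, and 8 to 9 over the mice left out. Mdm2, the negative regulator of p53, is named here because its value had been seen, and it did not pass (log2 fold change -0.28 ± 0.09, edgeR adjusted p = 0.0137). Without mouse 7 it was called lower (-0.36 ± 0.07, edgeR adjusted p = 0.000662), which made 2 of the 12 lower. Of these targets, 10 had a promoter in RefSeq. In the 250 bases before the start, 1 of them (Ccng1) holds a full p53 site with at most 1 mismatch.

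**Figure D4:**
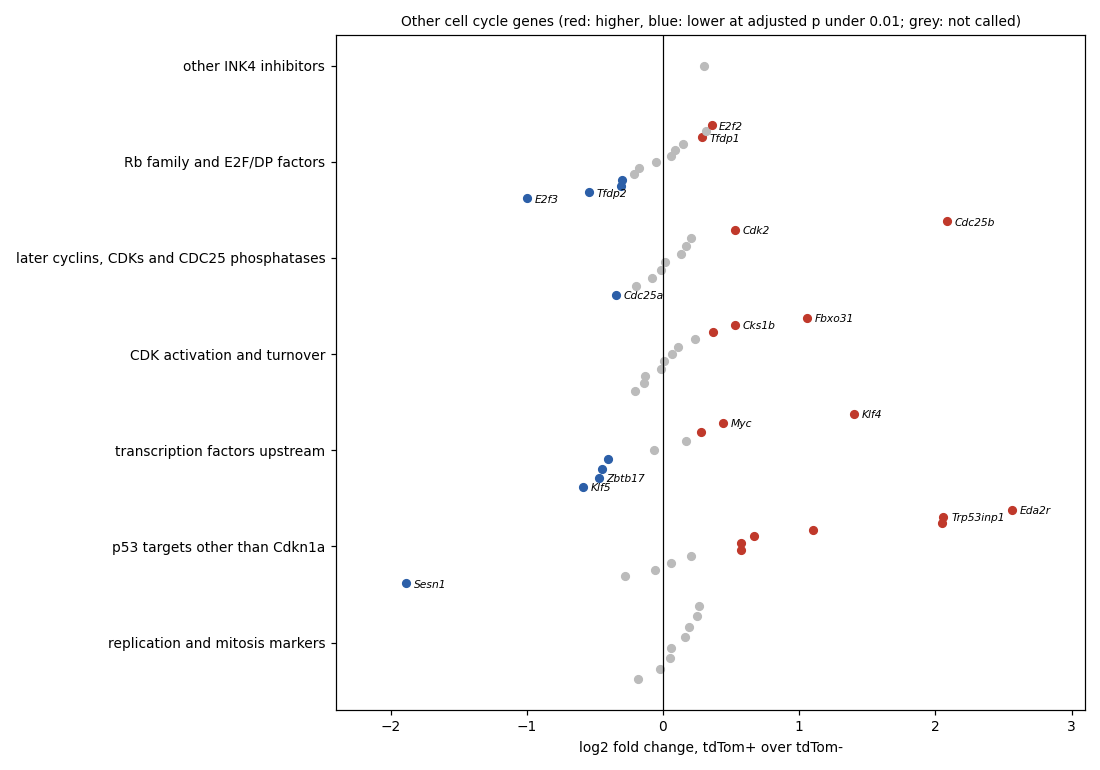
Log2 fold change in tdTom+ over tdTom- cells (horizontal axis) of every tested gene in 7 lists of cell cycle genes (rows), with genes higher at adjusted p under 0.01 in red, lower in blue and not passing in grey. The replication and mitosis markers are all grey, while the p53 targets spread from Sesn1 at -1.89 to Eda2r at 2.56.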

How the data were processed

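16 libraries of small intestinal epithelium were analysed, 8 tdTom+ and 8 tdTom-. The authors aligned reads with TopHat2 2.1.1 (per the submitters' processing notes, which also name GRCm38.p3 and Subread 1.5.2) and deposited raw counts per Ensembl gene, for which the file headers name featureCounts 1.5.0-p1, run in reverse-stranded mode on primary alignments. Near-identical copies can therefore share reads. Coordinates are those of the files, 1-based. The members and gene lists were chosen with earlier results of these data known.

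Genes were kept by filterByExpr and tested in R 4.3.3 with edgeR 4.0.16 (TMM scaling, quasi-likelihood F-test, mouse as a block). The SE is the absolute log2 fold change divided by the square root of F. CPM and RPKM are TMM-scaled. For the paired tests, p-values rest on how the difference between the fractions within a mouse varied from mouse to mouse. A library pairs with the other library of the same mouse by the number in its title. In the data, same-mouse libraries deviated together from their group means (correlation 0.245 to 0.634, mean 0.426, 8 mice), and libraries of different mice had a mean correlation of -0.0569 (-0.463 to 0.466), and 8 of 8 tdTom- libraries correlated best with the tdTom+ library of their own mouse. Differences between related genes were tested by exact sign flips of log2 CPM (prior count 2) with a threshold of 0.05. Gene symbols were found for 44585 of the 45513 identifiers. The text names the 10 members, up to 2 genes in each direction per list with the largest change among those called and with at least 1 CPM, the 3 genes nearest to the called member with the largest rise, and Atoh1 and markers. Other names were chosen after their values were seen. In counts simulated for the 15323 genes of this paired comparison, of which 15241 passed the filter when it was applied to the simulated counts, 91 of 100 genes with a log2 change of 1 were called, 60 of 100 with 0.5, and 1 of 15041 with 0. The simulation changed 100 genes at each size, while 55.8% of the genes tested passed in the data, so its rates need not hold there. Alternatives used DESeq2 1.42.0, limma-voom (limma 3.58.1), other scalings and filters, thinning to the smallest total, no block, and each mouse left out. Promoters came from RefSeq.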

Additional observations from a re-analysis of the deposited data

Results flagged for a closer look

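In 52 sets of 8 libraries (1 gene in 1 fraction), 8 had a highest or lowest value set apart from the rest by Dixon's criterion, where chance gives about 1 in 20 sets, or 2.6. Of these, 5 were high values in the tdTom- library of mouse 7. They were Ccnd1 at 119.4 CPM (next 48.8), E2f2 at 62.2 CPM (next 45.8), Tfdp1 at 70.2 CPM (next 49.5), Cks1b at 9.85 CPM (next 6.04) and Trp53inp1 at 22.0 CPM (next 12.9). The same library had the highest summed levels of stem cell and of replication markers among tdTom- libraries, and the part of these in the values was not tested. The other 3 were in other mice. Cdk6 in the tdTom- library of mouse 5 was low at 19.0 CPM (next 28.8), Cdkn2c in the tdTom+ library of mouse 3 was low at 6.05 CPM (next 7.95), and Cdkn2d in the tdTom+ library of mouse 5 was high at 7.67 CPM (next 5.79).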

How the results depend on the processing

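Without the replicate block, 7606 genes were called in place of 8556, and 6 of the 10 members were still called higher; Ccnd1 then had an adjusted p of 0.454. The difference between Cdkn2c and Cdkn2d kept its value of -0.37 but lost its call without the replicate block (adjusted p = 0.0895). Leaving out 1 mouse gave -0.427 to -0.291, with the call lost without mouse 1, 2, 3, 4, 5, 7 or 8. With fewer mice the smallest p that the sign-flip test can give is also larger. The other pair comparisons kept their direction and call in the alternatives run for them, which were no block, total counts, a prior count of 0.5 and each mouse left out.

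Members called higher were 5 with scaling by total counts, beside 22.3% of all genes tested, and 8 with at least 10 counts in every sample (33.6%), with an adjusted p threshold of 0.05 (31.3%), without mouse 3 (29.5%) and without mouse 7 (28.2%), against 6 (25.8%) as reported, and 0 were called lower under every alternative. Cdkn2c had a log2 change of -0.013 with total counts, which lower the median of all genes to -0.046, so that its change beyond the median was 0.033 as against 0.034 as reported. It was -0.0071 without mouse 6, with a range of -0.0071 to 0.18 over the mice left out. Among the lists, the count of other INK4 genes called went from 0 to 1 with DESeq2 and the block, thinning, no filter, at least 10 counts or a threshold of 0.05, and was 0 to 1 over the mice left out. CDK activation and turnover went from 3 to 1 without the replicate block, to 5 with at least 10 counts and to 5 with a threshold of 0.05, and was 1 to 4 over the mice left out. Replication and mitosis markers went from 0 to 1 with at least 10 counts and to 1 with a threshold of 0.05, and were 0 to 1 over the mice left out. The cause of these changes was not tested. The median of all genes was 0.12 with at least 10 counts in every sample and 0.12 without mouse 3, against 0.02 as reported, so that log2 changes under those settings are to be read relative to that shift.

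The lowest counts among the members were those of Cdkn2d, 68 to 181 per library, and those of Cdkn2c and Cdkn1c were of the same order, against 1656 to 6652 for Ccnd2.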
